A study of Mus musculus with 6 samples.

Results

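The transcripts described here are those of 32 genes of Schwann cells and nerve, measured in RNA from the proximal incisor of mice with and without an induced loss of the transcription factor Runx2. The genes were taken by name from the deposited count table, which holds 25700 genes, and all 32 were found in it. They were sorted by role into 7 myelin genes, 12 genes of Schwann cell identity and of immature Schwann cells, 6 neurotrophic ligands and receptors, and 7 genes of axons and neurons. A filter on low counts kept 30 of the 32 for testing, leaving out Gjb1 and Nefl. The control group was Runx2fl/fl, mice with a floxed Runx2 gene and no Cre. The other group, called cKO here, was Gli1-CreERT2;Runx2fl/fl, in which tamoxifen activates Cre in cells that express Gli1, a transcription factor of the hedgehog pathway. Each group had 3 mice of strain C57BL/6, aged 5 weeks. By the labels all mice, controls included, received tamoxifen at 1.5 mg per 10 g body weight on each of 3 days when 1 month old, and were sampled 1 week later. Since the controls lacked Cre, Runx2 loss and an effect of the Gli1-CreERT2 allele cannot be told apart.

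Schwann cells wrap the axons of peripheral nerves. They are specified from neural crest under the transcription factor Sox10, pass through an immature stage, and then either lay down compact myelin around large axons or stay unmyelinated around bundles of small ones. In the continuously growing mouse incisor the nerve enters at the proximal end together with blood vessels, and this neurovascular bundle is known as a source of hedgehog ligand for the Gli1-expressing mesenchymal stem cells. The cell bodies of these sensory neurons lie in the trigeminal ganglion, outside the tooth. Many genes of the 4 roles are also expressed outside nerve, in epithelium or mesenchyme, so a change in bulk RNA does not name the cell that made it. Fewer cells of a type and less RNA per cell cannot be told apart in these data.

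The libraries held 53525185 to 66694240 estimated counts. Levels are in CPM, counts scaled to the normalized library size, and 1 count equals 0.0149 to 0.0186 CPM. Runx2 measured 79.7, 77.7 and 81.2 CPM in control mice and 62.6, 53.97 and 49.03 CPM in cKO mice, so every cKO mouse was below every control, although the gene did not pass the threshold (edgeR quasi-likelihood test, adjusted p = 0.0714). Control 1 was male by its Xist level of 0.596 CPM and the 5 other mice were female, so sex and this mouse cannot be told apart. Control 1 also carried skeletal muscle RNA (7 markers summing to 194 CPM, against 12.5 to 15.6 in the other mice). Late enamel transcripts (5 markers) were at 112 and 97.97 CPM in control 1 and control 3, at 1798 CPM in control 2 and at 1107 to 2624 CPM in the cKO mice. The label calls the tissue dental mesenchyme, whose 6 markers summed to 291 to 481 CPM, yet the 4 secretory ameloblast markers, genes of the enamel epithelium, summed to 22160 to 79540 CPM.

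As regulatory sequence, RefSeq windows before annotated starts of Pmp22 and Tubb3 are shown. These genes are among the members whose groups separated and stand in the RefSeq table used here (build GRCm38.p6). Egfl8 meets both conditions too, with a SOX match in its window, but is not printed. Both printed genes were lower in cKO mice, while Egfl8 was higher. Pmp22 has 4 windows in the RefSeq table, of which the 2 that hold a RUNX match are printed and the other 2, with no RUNX or SOX match, are not. Of the 32 members 19 matched that table, with 35 windows of 250 bases before an annotated start. Capitals mark the core motif of RUNX factors, TGTGGT, in the Pmp22 windows and the core motif of SOX factors, ACAAAG or ACAATG, in the Tubb3 window. Both strands were searched, so a match on the minus strand appears as the reverse complement. The Tubb3 window is printed only up to the first exonic base of the gene in GENCODE M21. The windows are on the plus strand, at chr11:63128732-63128981 and chr11:63131207-63131456 for Pmp22 and at chr8:123411303-123411423 for Tubb3. The second Pmp22 window lies inside the gene span given below, which begins at 63128982. It stands before a later annotated start and is not upstream of the whole gene.
Pmp22 upstream window 1: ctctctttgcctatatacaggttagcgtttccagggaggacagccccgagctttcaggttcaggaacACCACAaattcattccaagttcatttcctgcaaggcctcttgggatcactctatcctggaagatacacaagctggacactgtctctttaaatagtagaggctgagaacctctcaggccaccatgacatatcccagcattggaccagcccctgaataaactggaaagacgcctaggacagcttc
Pmp22 upstream window 2: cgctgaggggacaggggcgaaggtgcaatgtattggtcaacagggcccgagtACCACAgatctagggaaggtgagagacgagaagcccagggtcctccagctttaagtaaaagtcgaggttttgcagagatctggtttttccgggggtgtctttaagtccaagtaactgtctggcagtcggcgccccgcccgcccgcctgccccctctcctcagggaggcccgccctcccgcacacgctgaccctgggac
Tubb3 upstream window: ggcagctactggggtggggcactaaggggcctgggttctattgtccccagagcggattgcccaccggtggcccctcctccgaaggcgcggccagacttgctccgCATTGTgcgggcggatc

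The RUNX motif stood in 6 of the 35 windows of members (17.1%), against 14.05% of all 32851 RefSeq windows. The SOX motif stood in 9 of the 35 (25.7%), against 25.24% of all windows. In the first Pmp22 window the RUNX match began at position -183 from the start site and in the second at -198. The match in the printed part of the Tubb3 window began at -146, counted from the RefSeq start. That start lies inside the gene span given below, which begins at 123411424, so the distance depends on the start used. Another match lay in the part not printed, whose 129 bases are exonic in GENCODE M21. That match is therefore not upstream of the whole gene. A match is a run of letters and shows neither binding nor use of the site.

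The levels of the members spanned more than 3 orders of magnitude once scaled by exonic length, which allows a rough comparison between genes. The length is that of all annotated exons of a gene merged, 19.292 kilobases for Ntrk2. It can exceed the length of the transcripts present and so lower a gene in the order. In controls Pmp22 was highest at 44.7 ± 2.73 CPM per kilobase (SD, n = 3), followed by Tubb3 at 34.4 ± 5.93, a gap larger than either SD. Gap43 (9.88 ± 1.43), Ngfr (8.51 ± 0.899) and Ncam1 (8.37 ± 1.28) came next. Gap43 and Ngfr differed by less than the SD of Gap43 but by more than that of Ngfr. Ngfr and Ncam1 differed by less than either SD, and Gap43 and Ncam1 by slightly more than either. Uchl1 and Cnp stood near 5 CPM per kilobase (5.12 ± 0.481 and 5.03 ± 0.879). A run of genes from Erbb3 (2.96 ± 0.583) through Ednrb, Mbp, Fabp7, Ntrk2 and S100b to Prx (2.01 ± 0.141) followed, in which each neighbour lay within the spread of the next. Sox10, the defining factor of the lineage, was low at 0.347 ± 0.125 CPM per kilobase. The intermediate filament genes of axons, Nefl, Nefm, Nefh and Prph, were at 0.0266 to 0.0522 CPM per kilobase, at the bottom of the order together with the connexin Gjb1.

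**Figure D1:**
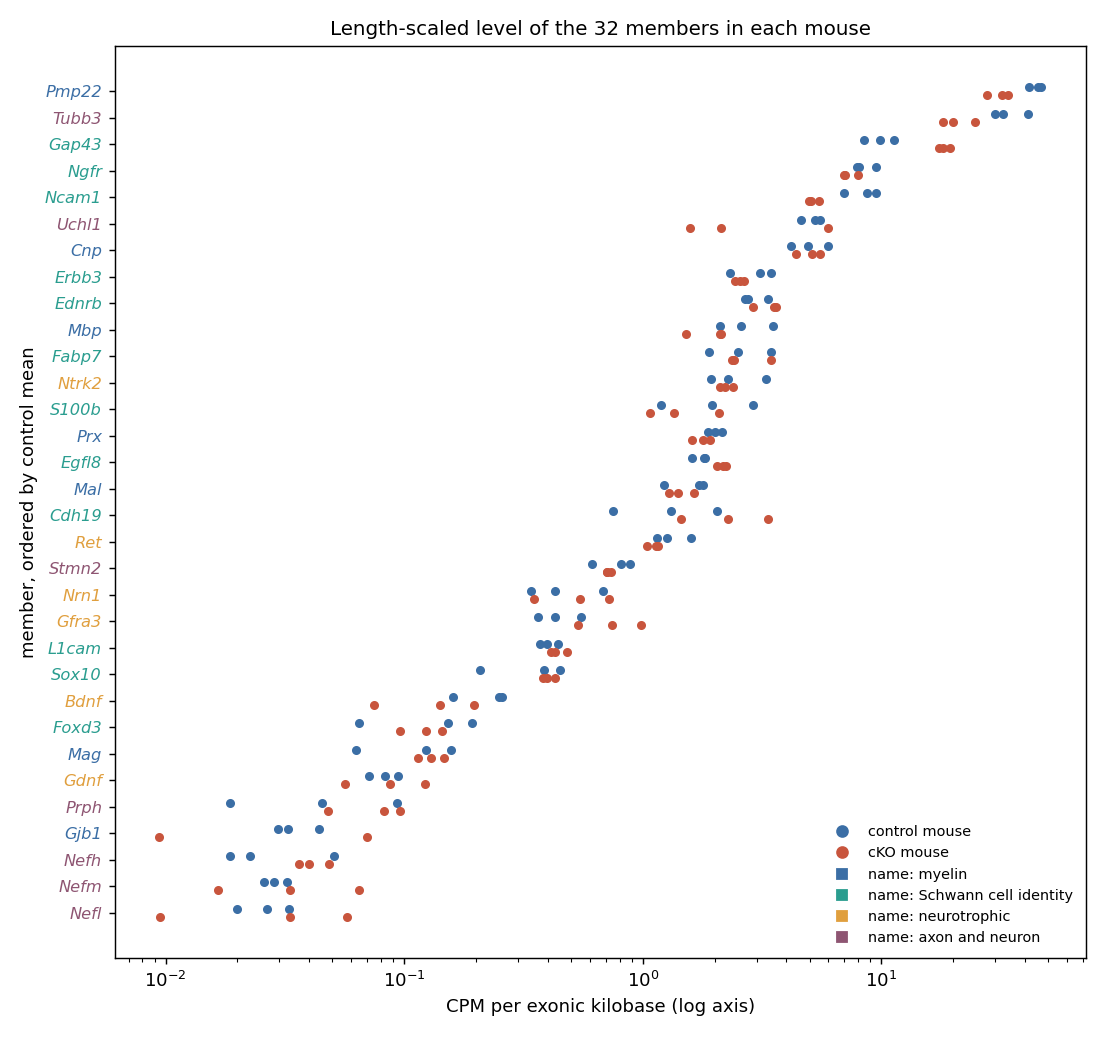
Level of each of the 32 members in CPM per exonic kilobase (log axis) for 3 control mice (blue points) and 3 cKO mice (red points), ordered by the control mean, with names coloured by role. Pmp22 and Tubb3 lead the order and the axonal filament genes close it. 1 cKO value of Gjb1 is 0 and is not drawn.

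Between genotypes no member passed the main test. By edgeR's quasi-likelihood test with adjustment over all genes, 0 of the 30 tested members passed, where 5 of 19264 genes (0.026%) passed in all, 0.0208% higher and 0.00519% lower in cKO mice. Unadjusted, 3 members were higher and 4 lower in cKO mice with an edgeR p under 0.05, or 10.0% and 13.3% of the 30, against 8.71% and 8.55% of all tested genes in those directions. Groups did not overlap for 2 members that were higher, Gap43 and Egfl8, and for 3 that were lower, Pmp22, Ncam1 and Tubb3. This is 6.67% and 10.0% of the tested members, below the 11.1% and 12.0% of all tested genes (23.1% in either direction). DESeq2 called 1 member higher (Gap43) and 3 lower (Pmp22, Ncam1 and Tubb3), or 3.33% and 10.0% of the 30 tested members. It called 6.89% of all 19264 tested genes, 3.62% higher and 3.27% lower. An adjusted p was given by DESeq2 to 27 of the members and to 17741 of all tested genes. By contrast limma-voom called 0 members and 0.0208% of all tested genes. The members were chosen with earlier results of these data known, so no excess is read from these shares. The median log2 fold change over the 30 members was -0.054, with 14 above 0 and 16 below, and that of all tested genes was 4.85e-05.

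**Figure D2:**
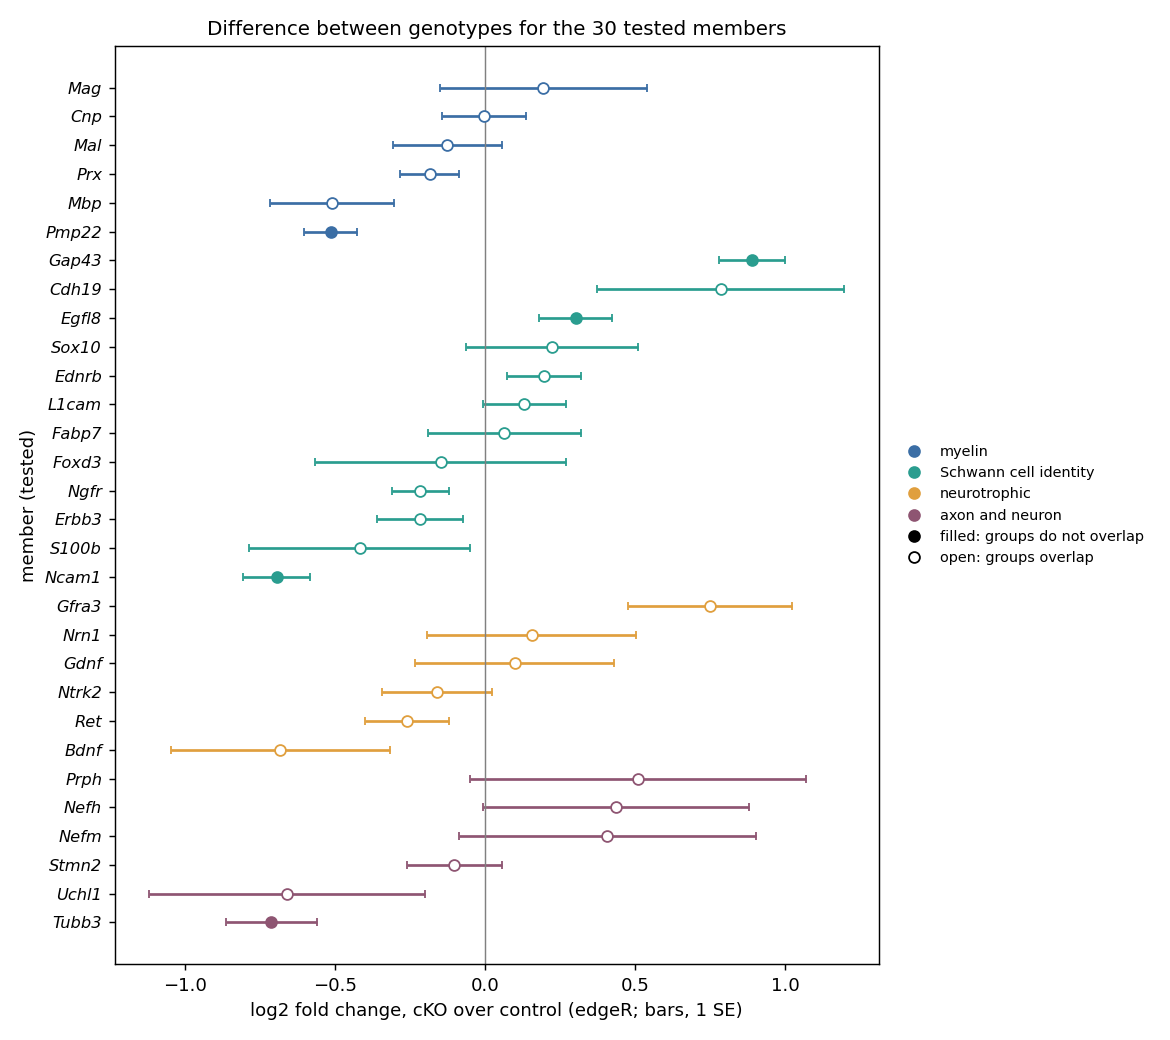
log2 fold change of cKO over control (x axis, edgeR, bars of 1 SE) for the 30 tested members, coloured by role. Filled points are the 5 members whose groups do not overlap, Gap43 and Egfl8 to the right of 0 and Pmp22, Ncam1 and Tubb3 to the left, and open points are members whose groups overlap.

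Among the myelin genes the main difference was in Pmp22. Pmp22 encodes a small membrane protein of compact myelin that is also made by many fibroblasts and epithelia (chromosome 11, 63128982 to 63159547, build mm10). It measured 107, 97.9 and 110 CPM in control mice and 75.2, 80.2 and 65.2 CPM in cKO mice. All cKO mice lay below all controls, a control level 1.43 times that of cKO (log2 fold change -0.52, SE 0.087). The difference did not pass by edgeR (adjusted p = 0.0714) and passed by DESeq2 (adjusted p = 9.91e-05).

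Mbp, the myelin basic protein that seals the inner faces of the myelin membrane, measured 21.8, 17.9 and 29.7 CPM in controls and 17.8, 18.05 and 12.9 CPM in cKO mice. Control 2 lay among the cKO values, so the groups overlapped (log2 fold change -0.51, SE 0.21, edgeR adjusted p = 0.270). Without control 3 the log2 fold change of Mbp was -0.29. Prx, the periaxin that links the Schwann cell membrane to its cytoskeleton, was at 11.2, 10.5 and 12.0 CPM in controls and 8.99, 10.7 and 9.98 CPM in cKO mice, again with overlap (-0.19, SE 0.10, edgeR adjusted p = 0.393). Mal, a proteolipid of myelin and of epithelial membranes, and Cnp, an enzyme of myelin-forming cells that many cells express, were at -0.13 (SE 0.18) and -0.0041 (SE 0.14) on the log2 scale. Mag, the adhesion protein at the inner face of the sheath, had 17 to 40 counts per library. Gjb1, the connexin of the Schwann cell's cytoplasmic channels, had 11 counts summed over controls and 9 over cKO mice. Over the 6 tested myelin members 5 were below 0 and 1 above, with a median of -0.16, which was -0.083 without cKO 1 and -0.26 without control 2.

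The other myelin genes of a list written for this comparison gave no call by edgeR, with 0 of 13 higher and 0 lower. Of these, 10 were below 0 and 3 above, with a median of -0.083. Nfasc had the lowest p of the list. It encodes neurofascin, an adhesion protein of the node of Ranvier and its flanks, and was at 54.7, 51.2 and 61.3 CPM in controls and 25.5, 40.2 and 40.1 CPM in cKO mice. Every cKO mouse was lower, with a log2 fold change of -0.66 (SE 0.17, edgeR adjusted p = 0.134, DESeq2 adjusted p = 0.00823). Pmp2, a lipid-binding protein of myelin, was also lower in each cKO mouse, but at 0.388 ± 0.182 CPM in controls against 0.187 ± 0.0647 CPM (SD, n = 3 each; edgeR adjusted p = 0.280). Of its exonic bases 86.9% are shared with another gene on the same strand, and without control 3 its log2 fold change moved from -1.05 to -0.62. Ncmap, a protein of noncompact myelin, had a log2 fold change of 0.44 (SE 0.22) with overlapping groups (edgeR adjusted p = 0.347).

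Several myelin genes differed more between mice of a group than between the groups. Mag, Cldn19, Ugt8a, Fa2h and Pou3f1 were highest in control 3 and lowest in control 2 among the controls, and Mbp and S100b had the same order. They were picked out after their values were seen, so the order is a description with no test. Cldn19, a claudin of Schwann cell junctions, had 0.763, 0.241 and 0.997 CPM in controls 1 to 3 and 0.731, 0.416 and 0.368 CPM in cKO 1 to 3. Ugt8a, an enzyme of myelin galactolipid synthesis, had 0.298, 0.0752 and 0.608 CPM in controls and 0.358, 0.208 and 0.0801 CPM in cKO mice.

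**Figure D3:**
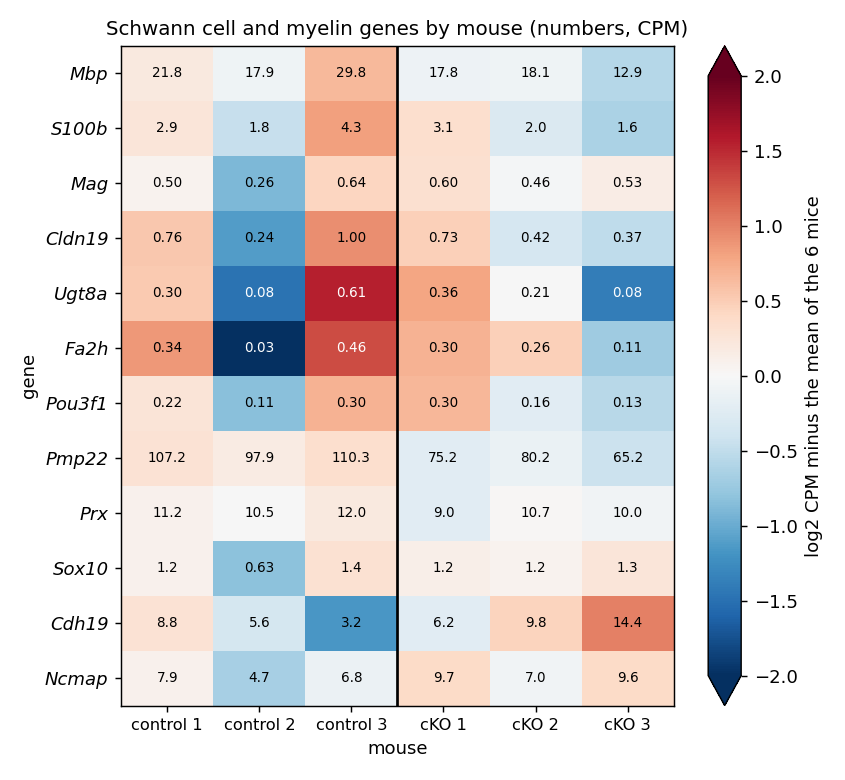
Genes of Schwann cells and myelin (rows) in the 6 mice (columns), coloured by log2 CPM minus the gene's mean over the mice, with the CPM printed in each cell. Control 3 is high and control 2 low among the controls for the upper 7 genes, and cKO 3 is the lowest cKO mouse for 6 of these (Mag is the exception). The genes shown were chosen after their values were seen.

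Genes of Schwann cell identity went both ways, with Gap43 higher and Ncam1 lower in cKO mice. Gap43 encodes a growth-associated protein of growing axons and of immature and unmyelinated Schwann cells (chromosome 16, 42248442 to 42340651). It measured 15.04, 17.2 and 12.9 CPM in controls and 29.5, 26.6 and 27.6 CPM in cKO mice. The groups stood well apart, at a cKO level 1.85 times that of control (log2 fold change 0.89, SE 0.11). Among the 30 tested members it had the lowest p and still did not pass by edgeR (adjusted p = 0.0610), while it passed by DESeq2 (adjusted p = 3.52e-09). Without control 2, where edgeR called 0.366% of all genes tested, it passed at a log2 fold change of 0.999 (adjusted p = 0.0338).

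Ncam1, the neural cell adhesion molecule of axons, unmyelinated Schwann cells, muscle and developing mesenchyme (chromosome 9, 49502136 to 49798925), went the other way. It was at 82.0, 60.3 and 75.2 CPM in controls and 43.2, 43.8 and 47.3 CPM in cKO mice. Every cKO mouse was below every control, with a log2 fold change of -0.69 (SE 0.11, edgeR adjusted p = 0.0669, DESeq2 adjusted p = 1.18e-05). Without control 2 Ncam1 passed by edgeR at -0.81 (adjusted p = 0.0307). Control 1, which carried muscle RNA, had the highest Ncam1 value, and without that mouse the log2 fold change was -0.593. Of its exonic bases 4.8% overlap a gene on the opposite strand.

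Egfl8, a secreted protein with EGF-like domains that Schwann cells express, measured 2.83, 3.19 and 3.21 CPM in controls and 3.82, 3.62 and 3.94 CPM in cKO mice. The groups did not overlap, but the difference was small (log2 fold change 0.30, SE 0.12, edgeR adjusted p = 0.271). Of its exonic sequence 40.7% is shared with another gene on the same strand, so its counts depend on how the authors divided reads.

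The genes that define Schwann cells showed no such separation. Sox10 measured 1.17, 0.631 and 1.37 CPM in controls and 1.21, 1.17 and 1.31 CPM in cKO mice (cKO over control 0.22 on the log2 scale, SE 0.29, edgeR adjusted p = 0.741). Control 2 was low and the other 5 mice were alike, and without control 2 the sign of the difference turned (-0.048). S100b, a calcium-binding protein of Schwann cells, measured 2.89, 1.77 and 4.31 CPM in controls and 3.10, 2.0 and 1.59 CPM in cKO mice (-0.42, SE 0.37, edgeR adjusted p = 0.614). The value for S100b was -0.058 without control 3, -0.22 without cKO 3, -0.69 without control 2 and -0.73 without cKO 1. The summed level of 4 Schwann cell markers (Sox10, S100b, Mbp and Cdh19) was 34.65, 25.95 and 38.65 CPM in controls 1 to 3. In cKO 1 to 3 it was 28.3, 31.0 and 30.2 CPM, within the control range. Mbp made up most of this sum, with means of 23.16 and 16.25 CPM. The markers went both ways, Mbp and S100b below 0 and Sox10 and Cdh19 above 0 on the log2 scale. The sum therefore does not show that the amount of Schwann cells was unchanged.

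The remaining genes of this role overlapped between the groups. Cdh19, a cadherin of Schwann cell precursors, had the widest range of these in CPM, at 8.77, 5.64 and 3.23 CPM in controls and 6.18, 9.78 and 14.4 CPM in cKO mice (cKO over control 0.79 on the log2 scale, SE 0.41, edgeR adjusted p = 0.381). Erbb3, the receptor through which axonal neuregulin keeps Schwann cells alive, was at 17.8 ± 3.51 and 15.3 ± 0.673 CPM (SD, n = 3 each). Ngfr, the low-affinity neurotrophin receptor of immature Schwann cells and dental mesenchyme, was at 29.3 ± 3.10 and 25.2 ± 1.86 CPM. Ednrb, an endothelin receptor of the neural crest lineage, was at 12.5 ± 1.56 and 14.3 ± 1.66 CPM. L1cam, an adhesion molecule of axons, and Fabp7, a fatty acid-binding protein of glial precursors, had log2 fold changes of 0.13 (SE 0.14) and 0.063 (SE 0.25). Foxd3, a transcription factor of neural crest, had 10 to 24 counts per library. Over the 12 members of this role 7 were above 0 and 5 below, with a median of 0.096. The median was 0.012 without control 2 or without cKO 3 and 0.16 without cKO 2.

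**Figure D4:**
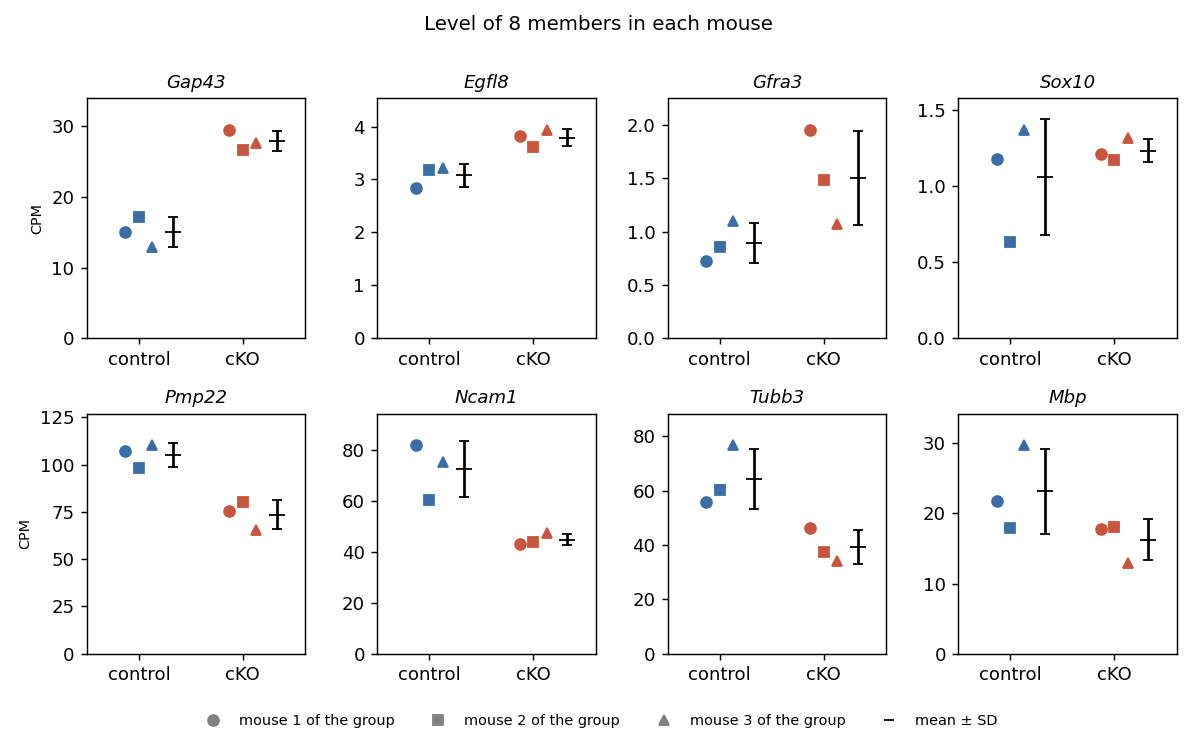
CPM (y axes, from 0) of 8 members in each mouse, with controls in blue, cKO mice in red, the symbol shape giving the mouse number within its group and black bars the mean ± SD. Gap43 and Egfl8 are higher and Pmp22, Ncam1 and Tubb3 lower in every cKO mouse, while Gfra3, Sox10 and Mbp overlap.

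Among other Schwann cell genes, 12 of 13 listed genes were in the table and tested, and 0 passed by edgeR in either direction. Of these, 4 were higher in cKO mice without overlap (33.3%, against 11.1% of all tested genes) and 0 lower (against 12.0%). They were Cadm2, Matn2, Atp1b2 and Zeb2, the last at means of 125.1 and 143.1 CPM. DESeq2 called 2 higher (16.7%, against 3.62% of all tested genes) and 0 lower. The list was written with earlier results of these data known, so no excess is read from these shares. Cadm2, a synaptic cell adhesion molecule, measured 1.36, 1.50 and 1.199 CPM in controls and 2.66, 3.54 and 3.15 CPM in cKO mice. This is a cKO level 2.297 times that of control (log2 fold change 1.2, SE 0.17, edgeR adjusted p = 0.0622, DESeq2 adjusted p = 2.64e-06). Matn2, a matrix protein laid down by Schwann cells and by fibroblasts, measured 66.7 ± 7.94 and 96.4 ± 13.02 CPM (SD, n = 3 each; edgeR adjusted p = 0.107). Atp1b2, a subunit of the sodium pump of glia, measured 21.5 ± 3.48 and 27.1 ± 1.32 CPM (edgeR adjusted p = 0.227). The lowest cKO value was above the highest control value for each of these 3 genes. Gfap, an intermediate filament of unmyelinated and injured Schwann cells, was low in both groups, at 0.444 ± 0.149 and 0.381 ± 0.00637 CPM.

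Marker sums separated the groups for some cell types and not for others. The sums overlapped for Schwann cells, perineurial cells, dental epithelium, late enamel, skeletal muscle, neutrophils and erythroid cells. Cldn1 and Itgb4 made up most of the perineurial sum, with control means of 247.9 and 196.4 CPM, while Lypd2 had at most 10 counts in any library. The perineurial sum therefore does not show the amount of perineurial cells. The sums that separated follow. In cKO mice without overlap, the 5 endothelial markers summed to 449 to 474 CPM against 374 to 400 in controls, and the 4 macrophage markers to 327 to 431 against 202 to 294. The 2 odontoblast markers, Dspp and Dmp1, summed to 5881 to 11810 CPM against 2644 to 4554, and the 6 dental mesenchyme markers to 411 to 481 against 291 to 373. Of these 6, Prrx1, Msx1 and Pax9 were higher without overlap, while Lhx6 (-0.44) and Barx1 (-0.68) had log2 fold changes below 0 with overlapping groups. The 4 secretory ameloblast markers were lower in cKO mice, at 22160 to 46680 CPM against 60040 to 79540. The 6 markers of melanocytes, cells that share Sox10 and Ednrb with Schwann cells, summed to 26.5 to 28.7 CPM against 23.5 to 24.0. Dct and Mitf made up most of this sum. Dct was higher without overlap (means of 12.56 and 15.61 CPM), Mitf overlapped, and Pmel had a log2 fold change of -0.09 with overlap. Tyr and Mlana had at most 10 counts in any library, and Tyrp1 had 5 counts over controls and 17 over cKO mice. The part of these cell types in the differences of Gap43, Ncam1, Pmp22 and Tubb3 was not tested.

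No neurotrophic ligand or receptor separated the groups, and none passed the test. These proteins carry survival signals between target tissue and nerve: GDNF family ligands bind a GFRα co-receptor that engages the kinase Ret, and BDNF binds the kinase TrkB, the product of Ntrk2. Gfra3, the co-receptor for artemin, measured 0.726, 0.857 and 1.10 CPM in controls and 1.96, 1.49 and 1.07 CPM in cKO mice. Its values in cKO 3 and control 3 were alike, so the groups overlapped (log2 fold change 0.75, SE 0.27, edgeR adjusted p = 0.230).

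Ret measured 10.8, 8.51 and 7.74 CPM in controls and 7.07, 7.81 and 7.69 CPM in cKO mice (cKO over control -0.26 on the log2 scale, SE 0.14, edgeR adjusted p = 0.389). Bdnf was at 1.601, 0.992 and 1.55 CPM in controls and 1.22, 0.880 and 0.464 CPM in cKO mice, with overlap (-0.68, SE 0.37, edgeR adjusted p = 0.390). Ntrk2 was at 48.2 ± 13.7 and 43.1 ± 2.86 CPM (SD, n = 3 each). Gdnf, the ligand that gives the family its name, had 13 to 30 counts per library. Nrn1, a neuritin anchored to the neuronal membrane, was at 1.09 ± 0.402 and 1.21 ± 0.413 CPM. Over the 6 members 3 were above 0 and 3 below, with a median of -0.031. It was 0.092 without control 3 and -0.21 without cKO 1. Filtering at 1 CPM gave -0.16. Leaving out control 1, control 2 or cKO 2 gave -0.071, -0.077 and -0.11, and leaving out cKO 3 gave -0.0043.

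In the wider neurotrophic family 12 of 14 genes were tested and 0 passed by edgeR in either direction. The co-receptors had values in both directions. Gfra1, the co-receptor for GDNF itself, was lower at 15.5, 9.79 and 16.1 CPM in controls and 6.13, 7.86 and 5.51 CPM in cKO mice, a control level 2.12 times that of cKO (log2 fold change -1.09, SE 0.22, edgeR adjusted p = 0.0878, DESeq2 adjusted p = 0.000124). Gfra2, the co-receptor for neurturin, was higher without overlap, at 31.9 ± 6.39 and 43.5 ± 3.90 CPM (0.45, SE 0.15, edgeR adjusted p = 0.202). Sort1, the sortilin that sorts neurotrophins and pairs with Ngfr, measured 163 ± 9.16 and 199 ± 12.8 CPM (0.29, SE 0.071, edgeR adjusted p = 0.116, DESeq2 adjusted p = 0.0121). Differences between these co-receptors were not tested.

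Genes of axons and neurons fell into abundant and barely detected ones. Tubb3, the beta-tubulin used as a neuronal marker and also made by other dividing or secreting cells (chromosome 8, 123411424 to 123422015), measured 55.8, 60.2 and 76.8 CPM in controls. In cKO mice it was at 46.2, 37.5 and 33.9 CPM, below every control, so that the control level was 1.64 times that of cKO (log2 fold change -0.71, SE 0.15). It did not pass by edgeR (adjusted p = 0.0935) and passed by DESeq2 (adjusted p = 0.00082). Beta-tubulin genes resemble each other, and the treatment of reads that match several of them is not given in the labels.

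The axonal filament genes had few counts. Nefl, the light neurofilament chain, had 6, 6 and 4 counts in controls and 13, 7 and 2 in cKO mice. Scaled to depth, the cKO sum over the control sum was 1.29 (95% Clopper-Pearson interval 0.645 to 2.62, counting error only). Nefh, the heavy chain, had 4, 6 and 12 counts in controls and 13, 10 and 9 in cKO mice (ratio 1.36, interval 0.766 to 2.46; edgeR adjusted p = 0.667). Nefm and Prph had ratios of 1.34 (0.821 to 2.21) and 1.43 (0.773 to 2.69). Each interval includes 1, so no difference was detectable at this depth. cKO 1 held 13 of the 22 cKO counts of Nefl and 25 of the 43 of Nefm, and without it the log2 fold change of Nefm turned from 0.41 to -0.21. The opposite strand of Nefl and Nefm overlaps, with 32.8% of Nefl exonic bases shared, and strand is not stated for these counts.

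Uchl1, a deubiquitinase abundant in neurons, was at 7.48, 8.58 and 9.00 CPM in controls and 9.79, 3.47 and 2.58 CPM in cKO mice. It was low in cKO 2 and cKO 3 and highest of all in cKO 1 (log2 fold change -0.66, SE 0.46, edgeR adjusted p = 0.515), and without cKO 1 the log2 fold change was -1.46. Of its exonic sequence 18.1% is shared with an antisense gene. Stmn2, a stathmin of growing axons, was at 4.31 ± 0.794 and 4.01 ± 0.0829 CPM. Over the 6 tested members of this role 3 were above 0 and 3 below, with a median of 0.15. With a filter of 1 CPM, which leaves Tubb3, Uchl1 and Stmn2, the median was -0.65. It was -0.16 without cKO 1 and -0.044 without control 1.

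In the wider axon and neuron list 13 of 19 genes were tested and 0 passed by edgeR. Without overlap 3 were higher (Mapt, Trpv1 and Npy) and 2 lower (Map1b and Sncg), or 23.1% and 15.4%. The shares of all tested genes were 11.1% and 12.0%. The share of 23.1% includes Npy, whose separation was bound up with the filter, as given below. The list was also written with earlier results of these data known, so no excess is read from these shares. Mapt, the microtubule-binding protein tau, measured 10.6, 7.83 and 6.28 CPM in controls and 31.7, 19.6 and 37.2 CPM in cKO mice. Every cKO mouse was higher, at 3.58 times the control level (log2 fold change 1.84, SE 0.27, edgeR adjusted p = 0.0645, DESeq2 adjusted p = 1.44e-09). Map1b, another microtubule-binding protein of growing axons, was lower, at 201, 206 and 213 CPM in controls and 172, 149 and 132 CPM in cKO mice (-0.45, SE 0.098, edgeR adjusted p = 0.0949, DESeq2 adjusted p = 0.00259). Npy, the neuropeptide Y of sympathetic fibres, had 1 count summed over controls and 116 over cKO mice (34, 61 and 21). The depth-scaled ratio was 108 and rests on 1 control count. Npy passed the filter on low counts only through the cKO mice, where it is high, so its place among the tested genes depended on that difference and no test of it is given. Ina, Snap25, Elavl3 and Elavl4, which neurons use for filaments, vesicle release and RNA binding, did not pass the filter on low counts.

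**Figure D5:**
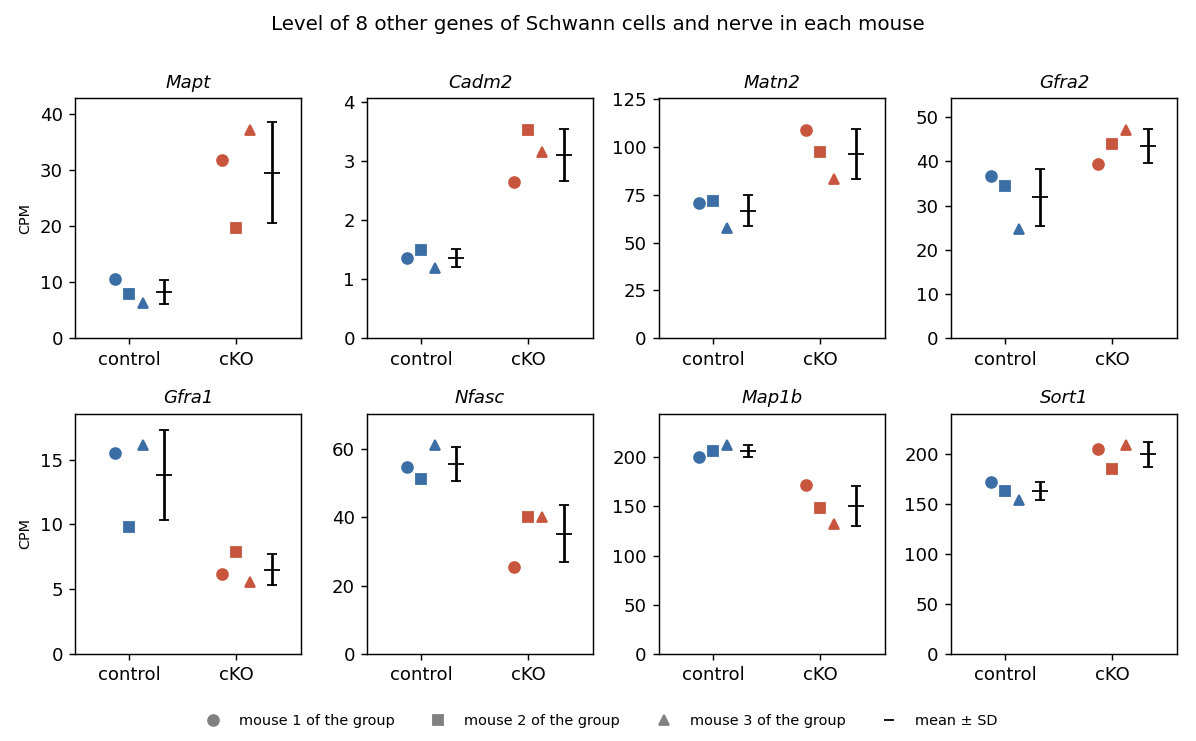
CPM (y axes, from 0) of 8 genes of the wider lists in each mouse, with controls in blue, cKO mice in red, the symbol shape giving the mouse number within its group and black bars the mean ± SD. Mapt, Cadm2, Matn2, Gfra2 and Sort1 are higher and Gfra1, Nfasc and Map1b lower in every cKO mouse.

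Seen by mouse rather than by gene, the roles differed in how mice lined up. Over the 5 myelin members with a mean of at least 1 CPM, the mean log2 CPM relative to the control mean was 0.0753, -0.18 and 0.105 in controls and -0.319, -0.135 and -0.334 in cKO mice. Control 2 lay between the cKO values, so the groups overlapped. Over the 11 such genes of Schwann cell identity it was 0.00342, -0.0521 and 0.0486 in controls and 0.11, 0.0512 and 0.177 in cKO mice. The groups did not overlap, by a gap smaller than the range within either group. These genes include Gap43 and Ncam1, the role's highest and lowest log2 fold changes (0.89 and -0.69). The mean was not taken without them, so no shift of the whole role is read from it. Over the 3 such genes of axons and neurons the mean log2 CPM was -0.219, 0.0171 and 0.202 in controls and -0.094, -0.711 and -0.9 in cKO mice, with cKO 1 among the controls. Among the neurotrophic genes (5) control 3 was highest at 0.262 and cKO 3 lowest at -0.275.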

How the data were processed

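RNA from the proximal incisor was sequenced in 6 libraries, each with its own number in the labels, as single-end reads of 75 cycles. P-values measure the spread between these libraries. STAR 2.6.1d, Partek and the build mm10 are named, per the submitters' processing notes. For annotation release, counting settings and strandedness the sources used here give nothing. The deposited estimated counts were not normalized by the authors and only 45.6% to 48.0% of values per library were whole, so they were rounded. The other deposited table, a normalized signal made by the authors, equals the estimated count plus 1 times 1 factor per library (all values within 0.1%). No test used it.

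After filterByExpr (minimum count 10, minimum total 15) 19264 genes were left, which were scaled by TMM and tested with edgeR 4.0.16's quasi-likelihood F-test in R 4.3.3, two-sided, with all 6 libraries, no covariates, p-values adjusted over every tested gene by Benjamini and Hochberg, and 0.05 as threshold. Each SE is the log2 fold change divided by the root of F. CPM was computed on library sizes multiplied by the TMM factor, and ± is the SD. Alternatives were DESeq2 1.42.0, limma 3.58.1 (voom), 2 other scalings, 2 other filters and leaving out each mouse. On simulated counts of this comparison (19010 genes, 200 of them changed) edgeR found 85% of the genes simulated at a log2 change of 1 and 100% of those at 2, with 14 false calls. DESeq2 found 94% and 100%, with 67 false calls. The simulation drew each gene independently, with no shift shared by many genes of 1 mouse, such as the muscle RNA of control 1. Its changed genes all had a mean of at least 1 CPM. These rates therefore need not hold for the real counts, where edgeR called 5 of 19264 genes. A member that did not pass is not shown to be unchanged. Replicate pairs within groups had a chi-square per degree of freedom of 49.1 to 80.6, so no library repeats another. Mice were numbered in accession order, which pairs none.

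Gene coordinates are those of the deposited table, with the end reduced by 1. Exonic lengths and shared bases were taken from GENCODE M21 (also mm10). The authors may have used another annotation. The members and lists were chosen with earlier results of these data known. Values of each mouse are given for the 3 members of lowest p in each role and for Sox10, S100b, Mbp, Tubb3 and Nefl, and likewise or as group means for the 3 genes of lowest p in each wider list. Some genes of the wider lists and markers are not reported here, and their lists were counted without them. Cdh19, Cldn19, Ugt8a and the genes of the closing observations were picked with their values in view.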

Additional observations from a re-analysis of the deposited data

How the results depend on the processing

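The alternatives were 12 in number, and 20 of the 30 tested members kept their direction in each of those that gave a value. The count of members called was 0 in the reported analysis and 4 with DESeq2. Leaving out 1 mouse at a time it ran from 0 to 2, with 2 (Gap43 higher, Ncam1 lower) without control 2. Over all genes the count was 5 in the reported analysis (3325 at an unadjusted p under 0.05), 1327 with DESeq2, and 0 to 72 leaving out each mouse, 72 without control 2 and 0 without control 1, cKO 1 or cKO 2 (3103, 3278 and 2700 genes at an unadjusted edgeR p under 0.05). Gap43 stayed between 0.789 and 0.999, Ncam1 between -0.812 and -0.593, Tubb3 between -0.845 and -0.566 and Pmp22 between -0.576 and -0.436 on the log2 scale. The highest adjusted p of these 4 was 0.136, 0.177, 0.226 and 0.187. The median of the axon and neuron genes was 0.152 as reported and -0.654 with a filter of 1 CPM, which leaves 3 genes.

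The 10 members whose direction turned had reported log2 fold changes between -0.16 and 0.41. Cnp (-0.0041 as reported) was at 0.0033 with upper-quartile scaling, 0.0071 with limma-voom, 0.0041 with no filter and 0.0011 with a filter of 1 CPM. Leaving out each mouse, Cnp ran from -0.118 to 0.139, Mag from -0.112 to 0.501, Sox10 from -0.048 to 0.456, Foxd3 from -0.5 to 0.179, Fabp7 from -0.132 to 0.312, Nrn1 from -0.1 to 0.484, Gdnf from -0.202 to 0.334, Ntrk2 from -0.31 to 0.0873, Nefm from -0.207 to 0.758 and Stmn2 from -0.238 to 0.00988. Among members that kept their direction, Bdnf ran from -1.03 to -0.388, Ret from -0.361 to -0.106, Cdh19 from 0.442 to 1.19 and Uchl1 from -1.46 to -0.333 over all alternatives. The cause of these changes was not tested. No paired analysis was possible because no number in the labels is shared between the groups. The protocol speaks of 3 pairs but does not name them, so every p-value comes from an unpaired fit. Genes with few counts limit the axon list: Nefl, Nefm, Nefh and Prph had at most 25 counts in any library.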

Other observations

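Genes of sensory and sympathetic fibres were not described together above, and they are given here as values chosen after they were seen. Trpv1, the heat and capsaicin channel of pain fibres, was at 0.261, 0.286 and 0.169 CPM in controls and 0.657, 0.528 and 0.480 CPM in cKO mice (cKO over control 1.21 on the log2 scale, SE 0.28, edgeR adjusted p = 0.108). Every cKO mouse was above every control, and the gene did not pass. Calca and Tac1, the neuropeptides of pain fibres, overlapped between the groups, with log2 fold changes of -0.33 (SE 0.47) and -0.42 (SE 0.33). Scn9a, a sodium channel gene, overlapped too (log2 fold change 1.39, SE 0.62, edgeR adjusted p = 0.308). Scn10a, a sodium channel of sensory neurons, did not pass the filter on low counts. Of the sympathetic genes, Th, the rate-limiting enzyme of catecholamine synthesis, was at 12.4 ± 3.08 and 11.1 ± 2.79 CPM (SD, n = 3 each). Npy had 1 count in all controls and 116 in the cKO mice. Dbh, the enzyme that makes noradrenaline, had 20 counts over controls and 28 over cKO mice and did not pass the filter. Which cells made Th was not tested.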
